A study of Mus musculus with 10 samples.

Results

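The regions described here are 3424 of the 11033 SMAD2/3 regions listed for mouse endoderm (31.0%, exact 95% interval 30.2 to 31.9). They were chosen by position: each overlaps, by even 1 bp, no SMAD2/3 region of embryonic stem cells (ESCs), no HEB region of ESCs and no HEB region of endoderm. They are called HEB-free regions below, with respect to these lists of untreated cells. The name goes only that far, since 886 of them (25.9%, 24.4 to 27.4) overlapped a HEB region listed in cells given SB431542. The other endoderm SMAD2/3 regions fell into 3 classes: 1567 shared with ESC SMAD2/3, 2030 new ones on an ESC HEB region, and 4012 new ones on an Endoderm HEB region alone.

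The cells were mouse ESCs of the line CGR8, kept on gelatin with serum and LIF and no feeder layer, and day 4 cultures made from it in defined serum-free medium with 100 ng/ml Activin A from day 2. SMAD2/3 and HEB were immunoprecipitated from ESCs and endoderm. HEB was also immunoprecipitated from ESCs given 10 µM SB431542 (SB, an inhibitor of the activin, Nodal and TGF-beta type I receptor kinases) for 24 hours, and from differentiating cells given it with Activin A for 48 hours. The wording on the timing of SB in the differentiating cells leaves room for another reading. There were 6 ChIP libraries, 1 for each group, and 4 inputs, so no spread between cultures could be measured and no test across samples was possible. Each list held 4111 (ESC SMAD2/3) to 18981 regions (Endoderm HEB). Intervals given here cover counting error only. Endoderm identity rests on the label, since binding profiles hold no expression of markers.

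SMAD2 and SMAD3 are phosphorylated by activated activin and Nodal receptors, join SMAD4 and enter the nucleus, where they bind short DNA motifs weakly. Partner transcription factors such as FOXH1 and EOMES help place them on enhancers, and in the early embryo this pathway drives mesendoderm and endoderm genes. HEB, encoded by Tcf12, belongs to the E proteins, basic helix-loop-helix factors that bind E-box motifs as dimers.

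The HEB-free regions that reached a gene's 5′ end made up a large share, so the DNA before 6 such starts is printed to show how it varied. Among starts covered by a HEB-free region and with 1 RefSeq promoter entry, the first 4 belong to the highest peaks that overlapped no HEB list. The last 2 belong to the highest that overlapped both HEB lists of SB-treated cells. Each run holds the 200 bases before the RefSeq start on GRCm38.p6, and capitals mark the SMAD motif CAGAC or its complement and the E-box CANNTG.
6330403K07Rik, chr11:71033618-71033817, minus strand: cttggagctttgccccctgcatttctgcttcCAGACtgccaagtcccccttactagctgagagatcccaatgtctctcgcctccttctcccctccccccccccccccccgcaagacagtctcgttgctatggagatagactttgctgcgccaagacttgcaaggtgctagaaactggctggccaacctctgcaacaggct
Irgm1, chr11:48871421-48871620, minus strand: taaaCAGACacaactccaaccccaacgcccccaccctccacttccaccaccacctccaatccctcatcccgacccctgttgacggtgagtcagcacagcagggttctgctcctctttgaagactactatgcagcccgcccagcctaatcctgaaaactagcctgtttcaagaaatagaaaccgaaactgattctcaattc
Tmem17, chr11:22512083-22512282, plus strand: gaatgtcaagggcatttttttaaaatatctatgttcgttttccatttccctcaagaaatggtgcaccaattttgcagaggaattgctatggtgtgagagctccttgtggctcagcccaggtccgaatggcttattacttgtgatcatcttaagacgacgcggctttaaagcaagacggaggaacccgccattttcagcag
1700054K19Rik, chr6:112210508-112210707, plus strand: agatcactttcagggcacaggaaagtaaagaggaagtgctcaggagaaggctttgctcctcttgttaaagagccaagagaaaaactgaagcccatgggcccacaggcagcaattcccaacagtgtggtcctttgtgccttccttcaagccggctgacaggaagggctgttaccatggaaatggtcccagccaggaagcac
Tiparp, chr3:65528247-65528446, plus strand: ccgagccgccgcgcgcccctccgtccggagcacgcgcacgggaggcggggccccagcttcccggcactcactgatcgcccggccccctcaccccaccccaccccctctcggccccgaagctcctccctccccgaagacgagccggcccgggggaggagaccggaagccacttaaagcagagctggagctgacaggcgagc
0610012G03Rik, chr16:31948506-31948705, minus strand: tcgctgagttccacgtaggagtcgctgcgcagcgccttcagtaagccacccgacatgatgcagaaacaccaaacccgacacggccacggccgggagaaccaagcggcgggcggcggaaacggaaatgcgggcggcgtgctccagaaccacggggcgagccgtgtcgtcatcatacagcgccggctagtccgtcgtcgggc

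The first 2 of these runs hold 1 CAGAC each and no E-box, with 4 and 5 CG dinucleotides. The Tmem17 run holds neither motif and 7 CG, and that of 1700054K19Rik neither motif and 1 CG. The Tiparp run and that of 0610012G03Rik, which shares its region with Ncbp2, hold neither motif but 22 and 27 CG. A match or its absence in such a window says nothing about whether a factor binds there.

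HEB-free regions were low, and those away from promoters were also narrow. Their median ChIP height was 30.6 (95% interval 30.3 to 30.9, quartiles 27.2 and 36.9), against a smallest listed height of 25.0. The highest reached 296. Medians in the other classes were 47.4 for regions shared with ESC SMAD2/3, 37.5 for those on Endoderm HEB alone and 33.0 for those on ESC HEB. Their median width was 478 bp, against 635, 536.5 and 618.5 bp in these classes. The median count of ChIP tags was 138 over 16 background tags. The authors' tag enrichment equals the ratio of these counts at many regions and lies below it at others. Its median was 8.81, between the 7.50 of regions on ESC HEB and the 10.7 of those on Endoderm HEB alone. Width enters the chance of an overlap, and height the chance that a second factor is listed, so these values are a description of what the rule chose.

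The share of HEB-free regions fell from the lowest to the highest peaks. They made up 47.2% of the lowest quintile of endoderm SMAD2/3 regions by ChIP height, then 39.8%, 34.4% and 22.7%, and 11.2% of the highest quintile. The highest quintile, from a height of 53.5 up, held 247 HEB-free regions.

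**Figure D1:**
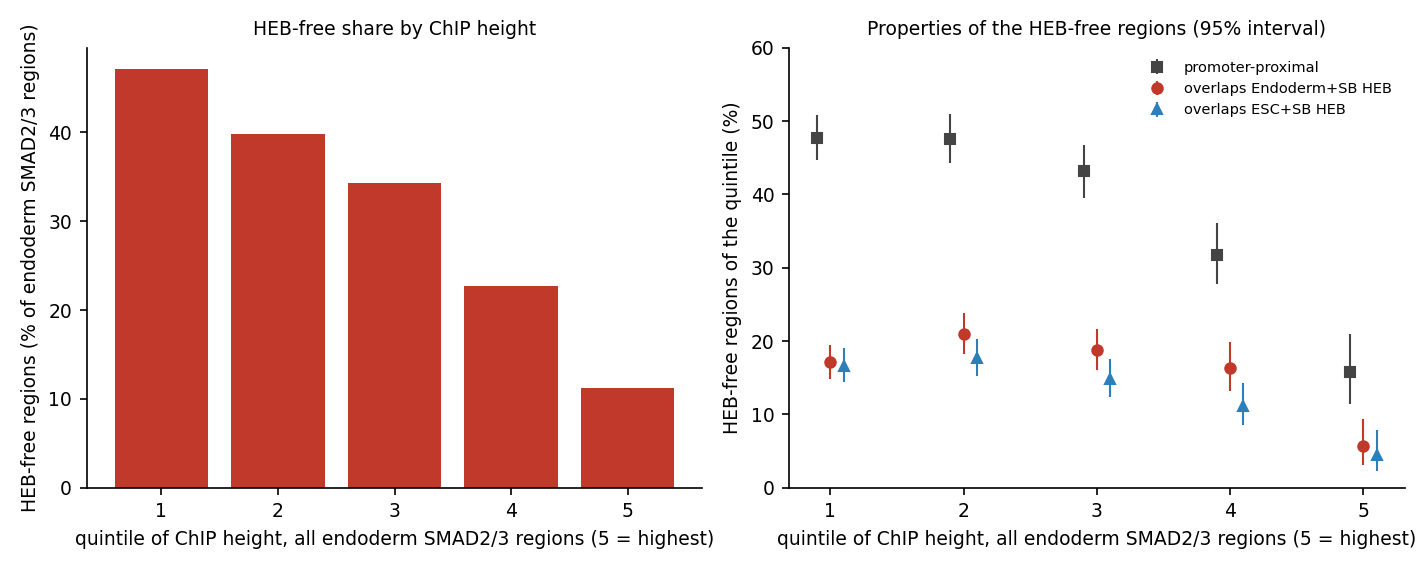
Left, the percent of endoderm SMAD2/3 regions that are HEB-free in each quintile of ChIP height (47.2% at the low end, 11.2% at the high end), and right, the percent of the HEB-free regions of each quintile that are promoter-proximal, overlap Endoderm+SB HEB or overlap ESC+SB HEB, with exact 95% intervals. All 3 shares on the right were smallest in the highest quintile.

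Many HEB-free regions lay at gene starts. Of the 3424, 1440 (42.1%, 40.4 to 43.7) lay within 1000 bp of the 5′ end of the gene the authors listed, here called promoter-proximal, against 30.3% over all endoderm SMAD2/3 regions. The share exceeded that of regions on Endoderm HEB alone (14.7%) by 27.4 percentage points (25.4 to 29.3) and that of regions shared with ESC SMAD2/3 (28.5%) by 13.5 points (10.7 to 16.3). It did not differ beyond counting error from the 42.9% of regions on ESC HEB (difference -0.85 points, -3.57 to 1.86). The sign of this last difference turned in 5 of 9 alternatives. With all lists limited to equal length, the promoter-proximal share fell to 24.8% and its difference from regions shared with ESC SMAD2/3 became -0.54 points.

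Of the promoter-proximal HEB-free regions, 1202 covered the 5′ end itself, and 154 (10.7%) had the 5′ ends of 2 or more genes within 1000 bp. A gene was listed for 2353 HEB-free regions (68.7%), against 61.4% of all endoderm SMAD2/3 regions, and 207 lay more than 100 kb from that gene's 5′ end. No gene was listed for 1071.

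The promoter-proximal and the other HEB-free regions differed in shape. The 1440 promoter-proximal ones were wide (median 705 bp), with 173 ChIP tags over 24 background tags and a tag enrichment of 6.99. The other 1984 were narrow (379.5 bp), with 117 ChIP tags over 11 background tags and an enrichment of 10.8. The other classes split the same way, with promoter-proximal median widths of 767 (shared with ESC SMAD2/3), 706 (on ESC HEB) and 677 bp (on Endoderm HEB alone) and the rest at 590.5, 561 and 518 bp. Promoter-proximal tag enrichments there were 8.07, 6.65 and 7.59. Median heights of promoter-proximal and other HEB-free regions were close, at 29.6 and 31.5, but the highest promoter-proximal peak reached 113 and the highest of the others 296. Background tags moved with position, and their part in the difference was not tested.

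**Figure D2:**
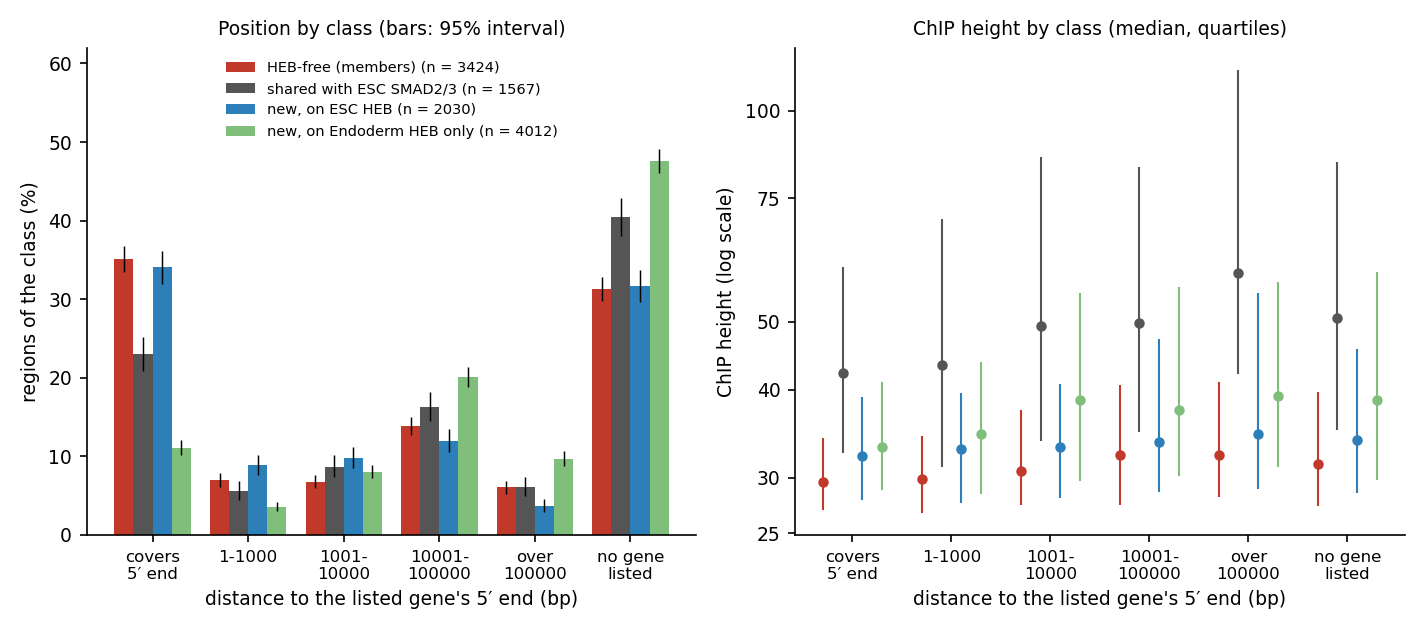
Left, the percent of regions of each class by distance to the listed gene's 5′ end, with exact 95% intervals, and right, the median ChIP height (points) with quartiles (lines) on a log axis. HEB-free regions covered a 5′ end in 35.1% of cases, against 11.1% of regions on Endoderm HEB alone, and had the lowest median height of the 4 classes in every distance bin.

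The HEB lists of SB-treated cells were not used to choose the regions. Of the HEB-free regions, 600 (17.5%, 16.3 to 18.8) overlapped Endoderm+SB HEB, against 33.8% of all endoderm SMAD2/3 regions. The difference was -26.1 points (-28.9 to -23.4) from regions shared with ESC SMAD2/3, -41.5 (-43.9 to -39.0) from those on ESC HEB and -13.5 (-15.4 to -11.6) from those on Endoderm HEB alone. ESC+SB HEB was overlapped by 507 (14.8%, 13.6 to 16.0), against 34.8% of all. The difference was -58.7 points (-61.1 to -56.1) from regions shared with ESC SMAD2/3 and -69.9 (-71.8 to -67.9) from those on ESC HEB. It was 3.34 points (1.802 to 4.90) from regions on Endoderm HEB alone, but -25.1 (-29.7 to -20.4) among promoter-proximal regions, -0.96 with lists of equal length and -1.77 standardized over enrichment. With the upper 50% of each list the overlap was 11.3% with Endoderm+SB HEB and 8.62% with ESC+SB HEB, and with lists of equal length 11.95% and 1.797%. The untreated and SB lists of the same antibody resemble each other and the classes differ in untreated HEB, so part of each difference is fixed by the choice.

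Overlap was concentrated at gene starts. Of the promoter-proximal HEB-free regions, 440 (30.6%) overlapped Endoderm+SB HEB and 395 (27.4%) ESC+SB HEB, against 160 (8.07%) and 112 (5.65%) of the others. The differences were 22.5 points (19.8 to 25.2) and 21.8 points (19.3 to 24.3). The other classes also overlapped more often near gene starts. For regions on Endoderm HEB alone the promoter-proximal and other shares were 58.6% and 26.2% (Endoderm+SB HEB), and 52.5% and 4.38% (ESC+SB HEB). For those shared with ESC SMAD2/3 they were 64.2% and 35.45%, and 79.4% and 71.1%. For those on ESC HEB they were 70.6% and 50.3%, and 93.7% and 78.0%. HEB-free regions that covered the 5′ end overlapped Endoderm+SB HEB in 33.7% of cases. This share was 14.7% at 1 to 1000 bp and 6.47% at 1001 to 10000 bp. For ESC+SB HEB the 3 shares were 29.2%, 18.5% and 12.1%. Region width also fell with distance (medians 747.5, 461 and 419.5 bp), and its part was not tested.

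Among promoter-proximal regions alone, 58.6% of those on Endoderm HEB alone overlapped Endoderm+SB HEB. The HEB-free ones differed from that by -28.1 points (-32.6 to -23.4). Both SB lists were overlapped by 221 HEB-free regions, Endoderm+SB HEB alone by 379, ESC+SB HEB alone by 286, and neither by 2538.

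**Figure D3:**
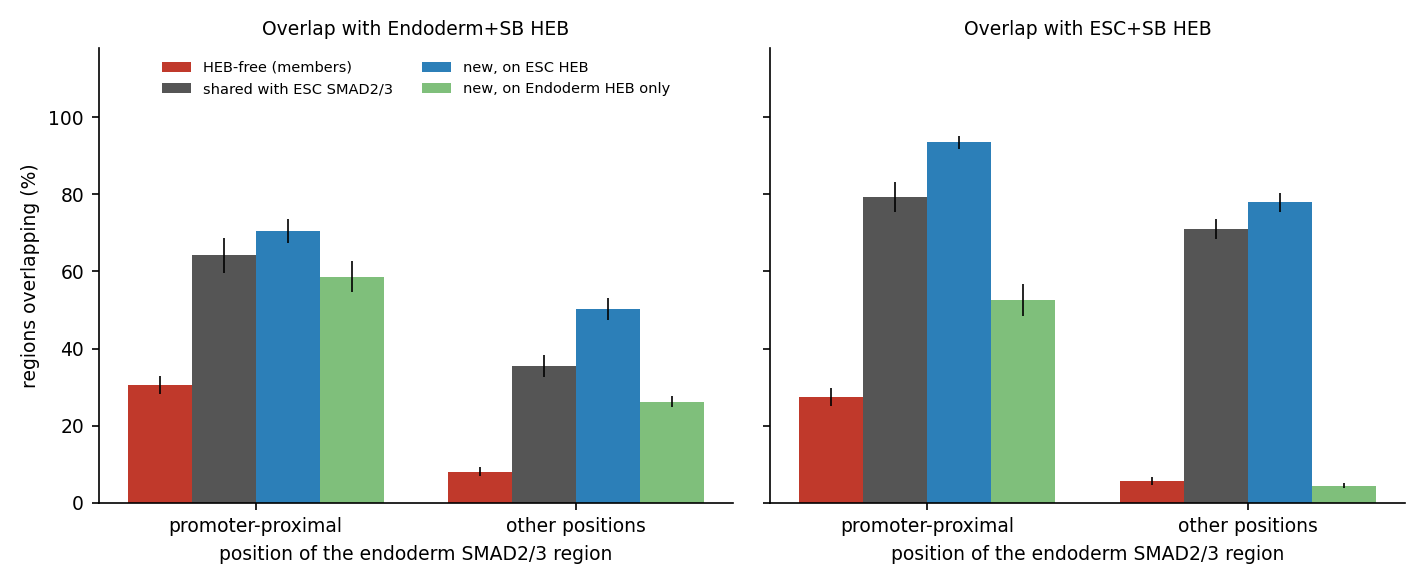
Percent of endoderm SMAD2/3 regions that overlap a HEB region of SB-treated cells, Endoderm+SB on the left and ESC+SB on the right, by class and position, with exact 95% intervals. HEB-free regions (red) overlapped Endoderm+SB HEB in 30.6% of cases near gene starts and in 8.07% elsewhere. In every class both SB lists were overlapped more often near gene starts.

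The HEB regions met in this way were low ones. The 602 Endoderm+SB HEB regions on HEB-free regions were 5.93% of that list, with a median height of 29.8 against 34.5 for the list, and 73.1% of them were promoter-proximal against 34.5%. The 505 ESC+SB HEB regions were 3.01% of their list, with a median height of 32.6, below that of the list, and 78.4% were promoter-proximal against 28.4%. The ESC+SB list starts at a height of 28.0 and the others at 25.0, and HEB binding under these heights was not seen. Whether HEB was gained with SB or lay just under the list's limit without it was not tested.

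Among the highest HEB-free regions on both SB lists were 3 over 5′ ends. At Tiparp, a poly-ADP-ribose polymerase gene, the SMAD2/3 height was 71.0 (601 tags over 57), with HEB at 33.1 in Endoderm+SB and 34.5 in ESC+SB. At Ncbp2, a cap-binding protein gene, it was 65.1, with HEB at 34.5 and 41.5, and at Ccdc64 57.9, with 41.5 and 35.9.

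Away from gene starts, Scube2, a secreted glycoprotein gene, had a SMAD2/3 height of 56.6 at 51405 bp. It met an Endoderm+SB HEB region of height 143, the highest of the 602. By contrast 6330403K07Rik (113), Klhl30 (111) and Irgm1 (93.5), an interferon-induced GTPase gene, were the highest promoter-proximal HEB-free regions, and none overlapped either SB list. The nearest HEB regions of untreated cells were ESC ones, at 15504 bp from the Irgm1 region and 32231 bp from that of Cggbp1 (68.1), a CGG-repeat binding protein gene.

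The highest HEB-free peaks mostly lay away from gene starts, as did high endoderm SMAD2/3 peaks of any class. In the highest quintile of ChIP height 15.8% of HEB-free regions and 13.8% of all endoderm SMAD2/3 regions were promoter-proximal. A ChIP height of 90 or more was reached by 41 of them, out of 810 endoderm SMAD2/3 regions of that height. Of the 41, 3 were promoter-proximal, 19 had no listed gene and 0 overlapped either HEB list of SB-treated cells. By the approximate rule of 3 divided by the number of regions, 0 of 41 allows a share of up to 7.32%. This limit is not an exact interval. Of the 247 HEB-free regions in the highest quintile, which include these 41, 14 (5.67%) overlapped Endoderm+SB HEB and 11 (4.45%) ESC+SB HEB. Both shares lie under the limit, so the 0 does not set the 41 apart from them. Of the 769 other regions of that height, 276 (35.9%) overlapped an Endoderm+SB HEB region. These classes differ in untreated HEB, so part of this difference is fixed by the choice. The nearest HEB region of untreated cells lay 120 bp to 1237060 bp from the 41 peaks, with a median gap of 28560 bp.

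The 5 highest without a gene are given in full, on mm9 as deposited. The peak at chr13:8961687-8962317 had a height of 296, with 959 ChIP tags over 19 background tags. An Endoderm HEB region lay 239 bp from it. The peak at chr1:45631902-45632413 had a height of 265, with 1070 tags over 13, and its tag enrichment of 82.3 was the highest of all HEB-free regions. Its nearest HEB region of untreated cells lay 28284 bp away. At chr9:50049689-50050410 the height was 195 and the nearest HEB region 96515 bp away. At chr2:156730625-156731715 it was 194, with HEB at 23514 bp. At chr7:58872780-58873300 it was 156, with HEB at 15326 bp and another endoderm SMAD2/3 region at 29 bp.

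Among peaks with a listed gene, the highest lay 21111 bp from the 5′ end of Vmn2r3, a vomeronasal receptor gene (chr3:64069393-64070228). Its height was 253, with 964 ChIP tags over 12. It was the only vomeronasal or olfactory receptor gene, of 1490 named so, with an endoderm SMAD2/3 region, and its second HEB-free region lay 73 bp from the first. No HEB region lay within 55325 bp.

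Fam188b, named Mindy4 in RefSeq, is a gene of the MINDY deubiquitinase family. Its HEB-free region (chr6:55256384-55256954) lay 103007 bp from its 5′ end. The height was 149.5, with 613 ChIP tags over 10 and a tag enrichment of 55.2, below the plain ratio of these counts. The nearest Endoderm HEB region lay 34568 bp away and the nearest ESC HEB region 146590 bp away. With SB the nearest regions were 102500 bp (Endoderm+SB HEB) and 146766 bp away (ESC+SB HEB). No other endoderm SMAD2/3 region lay within 34779 bp, so no region of any of the 6 lists lay within 34568 bp of this peak.

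The next peaks by height lay at genes of varied roles. At Zbtb16, a zinc finger transcription factor gene, the height was 139, but an Endoderm HEB region lay only 120 bp away and another SMAD2/3 region 67 bp away. At Pde8a, a cAMP phosphodiesterase gene, it was 130 (428 tags over 14), with HEB at 14332 bp. Inadl, a tight junction scaffold gene, had 122 (333 tags over 7) with no HEB region of untreated cells within 157090 bp.

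Ext1, which makes heparan sulfate, had 119.8 (534 tags over 22), and Galntl6, a glycosyltransferase family gene, had 117 (413 over 11). Arid1b, a subunit gene of the BAF chromatin remodelling complex, had 116 (301 over 7). 2010011I20Rik had 128, with Endoderm HEB at 876 bp. By tag enrichment, Klhl30 (46.0), Jmjd1c (37.6), Asb3 (35.7), Dgkh (35.4) and Ppp1r3f (35.3) joined them. At Dgkh the nearest Endoderm HEB region lay 20 bp away and at Ppp1r3f 697 bp away.

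Some of the highest peaks thus stood beside another region. Of the 41, 7 lay within 1000 bp of another endoderm SMAD2/3 region and 4 within 1000 bp of a list the rule used. Over all HEB-free regions, 346 (10.1%) lay within 1000 bp and 64 (1.87%) within 100 bp of such a list. The 2981 regions more than 1000 bp from both kinds of neighbour had a median height of 30.6, were promoter-proximal in 41.9% of cases and overlapped Endoderm+SB HEB in 18.1%.

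At the edge of the rule, the Foxp4 region (chr17:48036093-48036721, height 55.2) touched an ESC HEB region with 0 bp between them. The Dnmt3a region (chr12:3891333-3891718, height 26.0) lay 3 bp from an Endoderm HEB region, and the region at Clic1 and Ddah2 (height 27.8) lay 12 bp from one. Just outside, the Ank1 region (height 27.8) overlapped Endoderm HEB by 3 bp, and the Ninj1 region (27.3) overlapped ESC HEB by 7 bp. Overlaps of at most 100 bp placed 5 regions outside.

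HEB-free regions were spread out. The median gap to the next endoderm SMAD2/3 region was 41260 bp, against 18970 to 23150 bp in the other classes, and 3092 (90.3%) had no other HEB-free region within 10000 bp. The median gap was 29490 bp to Endoderm HEB, 37220 bp to ESC HEB and 146700 bp to ESC SMAD2/3. HEB-free regions made up 27.1% (chromosome 19) to 37.8% (chromosome 12, 33.4 to 42.3) of the endoderm SMAD2/3 regions of a chromosome.

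Pmepa1 and Zfp423 held the most HEB-free regions, 5 each. Pmepa1 encodes a membrane protein, induced by TGF-beta, that binds receptor-activated SMADs and damps the signal. Its 5 HEB-free regions had heights of 195, 37.5, 37.0, 36.6 and 33.5. The highest (chr2:173082959-173084468, 1040 tags over 46) lay 17566 bp inside the gene, and its nearest Endoderm HEB region was 8180 bp away. It lay 4639 bp from the nearest ESC SMAD2/3 region.

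The same gene carried higher SMAD2/3 peaks shared with ESCs: 429 at the 5′ end and 320 at 36740 bp from it, both on Endoderm HEB regions. Those HEB regions had heights of 66.1 and 72.9. In ESCs the SMAD2/3 peaks at these places were 61.9 and 196. The nearest Endoderm+SB HEB region was 57331 bp from the 5′ end peak and 75665 bp from the highest HEB-free region.

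**Figure D4:**
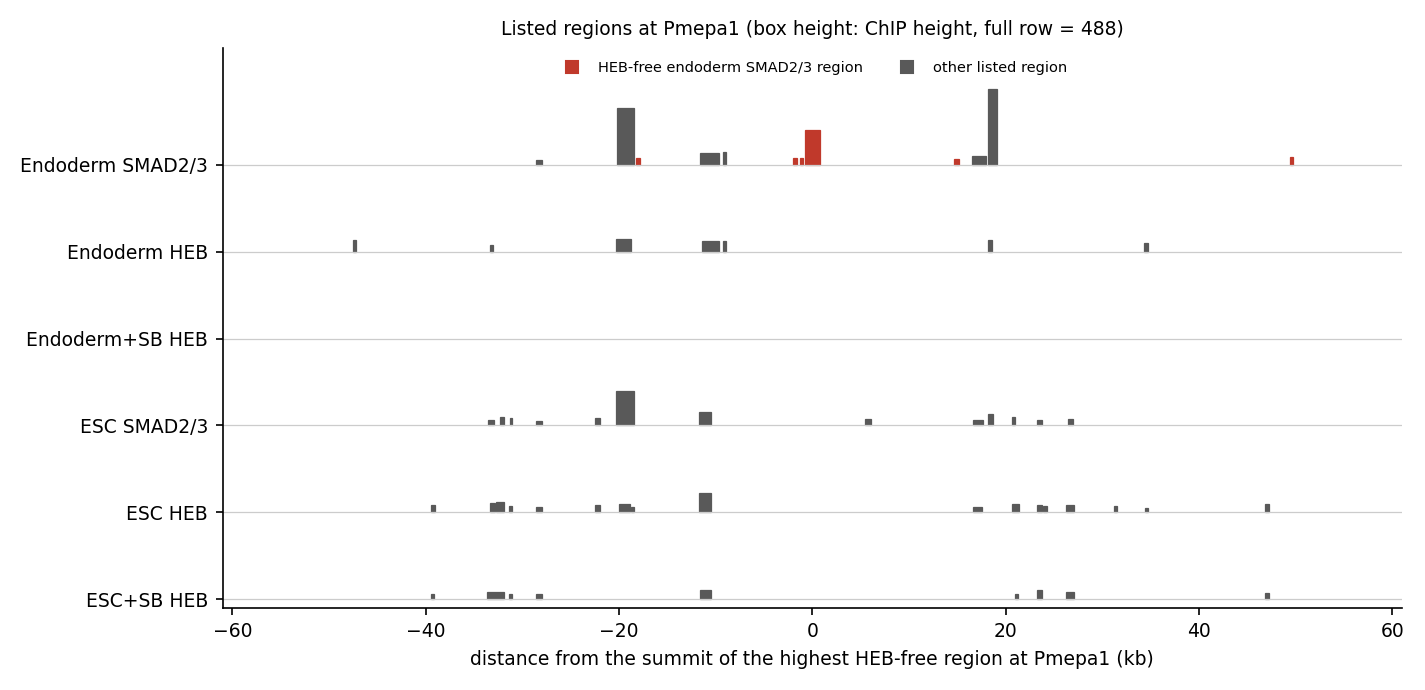
Listed regions of the 6 ChIP libraries within 60 kb of the highest HEB-free region at Pmepa1, by distance from its summit (kb), where box width is region width and box height is ChIP height on the same scale in every row. The highest HEB-free region (height 195) had no box beneath it in the other 5 lists. The choice of regions fixed this for ESC SMAD2/3, ESC HEB and Endoderm HEB, but not for the SB lists.

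Zfp423, a zinc finger cofactor gene, held HEB-free regions with heights of 58.3, 40.9, 27.9, 27.4 and 26.6. The gene also held 2 SMAD2/3 regions on Endoderm HEB alone (114.5 and 104.8) and 2 shared with ESC SMAD2/3 (91.7 and 41.0). The HEB-free region of height 58.3 was 102 bp from an Endoderm HEB region. Lhfpl2, Pde4d and Ppargc1b, a coactivator gene of mitochondrial biogenesis, held 4 each, with heights from 25.1 (Pde4d) to 59.7 (Ppargc1b).

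In all, 2356 of the 5246 genes listed for endoderm SMAD2/3 had a HEB-free region (44.9%). Of these genes, 1743 (74.0%) had no endoderm SMAD2/3 region of another class, and 1127 (47.9%) had a HEB region of untreated cells elsewhere. Of 21896 protein-coding genes in RefSeq, 10.4% had a HEB-free region and 23.1% any endoderm SMAD2/3 region. Gene lists are described by counts beside these shares.

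The Nodal and activin pathway list had HEB-free regions at 7 of 31 genes, with 20 of the 31 carrying any endoderm SMAD2/3 region. The 7 were 35.0% of those 20, against 44.9% of all such genes. Besides Pmepa1, the receptor gene Acvr1b had a HEB-free region over its 5′ end (height 30.7) and the ligand gene Gdf1 had 2 (26.2 and 25.5). Drap1, a corepressor gene known to limit Nodal responses, had a region of height 66.8 (229 tags over 34) at 184 bp. Its Endoderm+SB HEB neighbour lay 68 bp away.

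Regulators and a matrix partner of the pathway made up the rest. Smurf2, a ubiquitin ligase gene of the pathway, had 36.4 over its 5′ end, and Ski, a SMAD corepressor gene, had 29.0 at 427 bp. Both overlapped an Endoderm+SB HEB region. Ltbp1, which stores latent TGF-beta in the matrix, had 47.1 at 128202 bp, with no HEB region of untreated cells within 75097 bp. Of the 12 regions at these 7 genes, 2 overlapped Endoderm+SB HEB and 0 ESC+SB HEB. Over all HEB-free regions the shares were 17.5% and 14.8%, and 12 regions are too few to be set apart from them.

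Of 24 definitive endoderm genes, 14 carried an endoderm SMAD2/3 region and 2 a HEB-free one, neither promoter-proximal. The 2 were 8.33% of the list, beside 10.4% of all protein-coding genes. Of the 14 they were 14.3%, below the 44.9% of all genes with an endoderm SMAD2/3 region. They were Gsc, a homeobox target of Nodal (height 34.4 at 2052 bp), and Eomes, a T-box factor (26.95 at 2784 bp). Both lay near HEB, with ESC HEB regions at 1443 bp and 700 bp, and the Eomes region overlapped ESC+SB HEB.

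The other lineage lists held 1 or 2 such genes each, too few to set them apart from that share. The pluripotency list had 2 of 22, Esrrb (49.5, 28.5 and 27.6) and Klf4 (29.96). The mesoderm list had 1 of 26, Runx1 (28.6, with Endoderm HEB at 884 bp). The neuroectoderm list had 2 of 24, Nes (29.3) and Sox3 (27.5). These 5 genes had no promoter-proximal HEB-free region.

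The Wnt list had HEB-free regions at 12 of 36 genes, 5 of them promoter-proximal. Of its 25 genes with any endoderm SMAD2/3 region these were 48.0%, near the 44.9% of all such genes. Sfrp1, a secreted inhibitor, had 37.3 (123 tags over 5), and Wnt9a, a ligand, had 32.5 with an Endoderm HEB region at 78 bp. The transcription factor gene Tcf7l1 had 3 regions (32.0, 31.8 and 25.8). Axin2, a negative feedback gene of the pathway, had 31.2 at 8408 bp and 27.8 at 301 bp, and the second overlapped both HEB lists of SB-treated cells. The kinase gene Gsk3b had 29.4 over its 5′ end and overlapped both as well.

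The BMP list had 5 of 21 genes, or 50.0% of its 10 with any endoderm SMAD2/3 region. Smad5 and Smad1, which carry BMP signals, had 46.5 and 32.4 over their 5′ ends. The ligand Bmp4 had 39.7 at 2845 bp, with no Endoderm HEB region within 190659 bp, and the inhibitory Smad6 had 37.3 and 27.9 at 62483 and 65671 bp. The FGF and ERK list had 5 of 31, or 26.3% of its 19. Of these, the kinase genes Braf (47.0) and Map2k1 (37.8) had regions over their 5′ ends that overlapped Endoderm+SB HEB. The receptor Fgfr2 had 41.7, the inhibitor Spred2 39.2 and the transcription factor Etv5 36.7, all at 17069 bp or more from their 5′ ends and overlapping neither SB list.

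Several lists of genes active in most cells had mostly promoter-proximal HEB-free regions. This was not particular to them, since 1573 of the 2356 genes with a HEB-free region had a promoter-proximal one. Of all promoter-proximal HEB-free regions, 645 (44.8%) overlapped either HEB list of SB-treated cells, the share beside which the overlaps of these lists stand. Oxidative phosphorylation had 7 of 35 genes, all 7 promoter-proximal, out of 9 with any endoderm SMAD2/3 region, and 6 of the 7 regions overlapped a HEB list of SB-treated cells. Their heights were all low, from 25.3 (Cox7a2) to 29.9 (Atp5d and Ndufv1). The proteasome and ubiquitin list had 5 of 34, all 5 promoter-proximal, with Psmd12 the highest (31.4) and 4 of the regions on such a list.

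Translation had 6 of 35, all promoter-proximal, led by the initiation factor gene Eif4g1 (38.7), and 5 of the 6 regions overlapped a HEB list of SB-treated cells. Ribosomal protein genes had 5 of 86, led by Rpl37 (46.5), and mitochondrial ribosomal protein genes 5 of 78, led by Mrps18c (31.8). Splicing had 6 of 35, 4 of them promoter-proximal. Sf3a1 (32.3), Tra2b (25.4) and Sfrs2 (25.3) had it over the 5′ end. The 2 highest, at Prpf8 (34.6) and Sf3b2 (34.4), lay 23344 and 22008 bp from the 5′ ends of these genes. Each of these list shares stands beside the 10.4% of all protein-coding genes.

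Chromatin genes had 12 of 40, 9 of them promoter-proximal. Of the 25 with any endoderm SMAD2/3 region these were 48.0%, near the 44.9% of all such genes. The demethylase genes Kdm5b (46.3) and Kdm6b (44.0) were the highest, followed by the insulator protein gene Ctcf (38.2) and the remodelling ATPase gene Smarca4 (33.1). The Ctcf region ended 47 bp from an Endoderm HEB region and overlapped one in SB-treated endoderm cultures. Those at Trim28 (25.7) and Dnmt3a lay 145 bp and 3 bp from Endoderm HEB.

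Cell cycle had 5 of 38, or 35.7% of its 14 with any endoderm SMAD2/3 region. Of these, Ccne2, a cyclin gene, had 36.3 and the inhibitor gene Cdkn1b 29.0, both over the 5′ end. Cdkn1a had 29.3 and 27.4, the first with Endoderm HEB at 126 bp. Of the 6 cell cycle regions, 0 overlapped a HEB list of SB-treated cells. Over all HEB-free regions 25.9% did, and 6 regions are too few to be set apart from that share. Adhesion and matrix had 6 of 30, or 28.6% of its 21 with any such region, led by fibronectin, Fn1 (48.9 at 36201 bp).

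Transcription factors of broadly used promoters had 5 of 18, or 71.4% of the 7 with any endoderm SMAD2/3 region. Among them were Nrf1 (44.3) and Ets2 (29.8), both on an ESC+SB HEB region. Of 407 Zfp genes 39 had a HEB-free region, and of 382 solute carrier genes 44, with Zfp217 (68.9) and Slc1a1 (54.0) the highest. These were 44.3% and 48.9% of the genes of the 2 lists with any endoderm SMAD2/3 region.

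MicroRNA and small nucleolar RNA genes had 6 of 1333. These were 24.0% of the 25 with any endoderm SMAD2/3 region, against 44.9% of all genes with one. Mir132 and Mir212 shared 1 region that covered both 5′ ends (chr11:74986375-74987392, height 29.3, 204 tags over 41). It overlapped Endoderm+SB HEB (height 38.4) and lay 457 bp from ESC HEB and 467 bp from Endoderm HEB. The 2 microRNAs are printed from RefSeq because they share a seed (bases 2 to 8, in capitals).
mmu-miR-132-3p: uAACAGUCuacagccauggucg
mmu-miR-212-3p: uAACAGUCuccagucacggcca

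Mirlet7i had a HEB-free region of height 25.3 over its 5′ end, and Mir124a-3 one of 26.1 at 807 bp that overlapped ESC+SB HEB. These lay close to the smallest listed height.

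The promoters under HEB-free regions were rich in CG. Of 1573 genes with a promoter-proximal HEB-free region, 963 had a single RefSeq promoter entry of 300 bp (250 before and 50 after the start). These held a median of 26 CG dinucleotides and 65.3% GC, against 13 and 55.7% over 14730 protein-coding genes with 1 entry, and 25 and 64.7% for regions on Endoderm HEB alone. A start in RefSeq need not be the 5′ end in the authors' annotation.

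Fewer of these promoters held an E-box. CANNTG, on either strand, stood in 56.4% (53.2 to 59.6) of them, against 69.2% of protein-coding promoters, 64.9% (59.9 to 69.7) for regions on Endoderm HEB alone and 63.4% (59.3 to 67.3) for those on ESC HEB. The form CACCTG, included in CANNTG, stood in 15.7%, 19.3%, 21.1% and 20.8%, and CAGCTG in 12.3%, 15.0%, 17.9% and 18.6%. For regions shared with ESC SMAD2/3, CANNTG stood in 55.96%, so a low share was not limited to HEB-free promoters.

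SMAD motifs varied by form. CAGAC, the SMAD half-site, stood in 50.4% of promoters under HEB-free regions and 49.0% of protein-coding ones, and GTCTGG, which contains its complement, in 22.7% and 18.3%. The GC-rich GGCGCC stood in 31.8% and 15.1%, with 28.8% for regions on Endoderm HEB alone. AATNNACA, the FOXH1 letters, stood in 5.92% and 10.9%. GC content differed between these sets and its part in the motif shares was not tested.

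**Figure D5:**
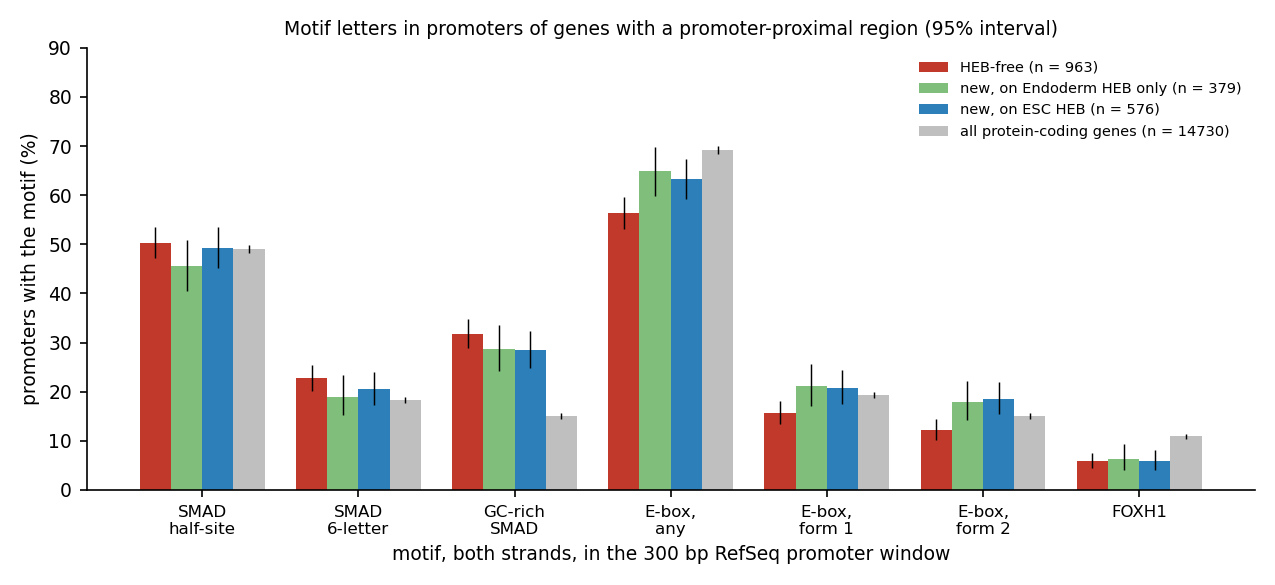
Percent of 300 bp RefSeq promoters that hold each motif on either strand, with exact 95% intervals, for genes with a promoter-proximal region of 3 classes and for all protein-coding genes with 1 entry, where the 6-letter SMAD motif is GTCTGG, E-box form 1 is CACCTG and form 2 is CAGCTG. The general E-box was less frequent under HEB-free regions (56.4%) than in the other 3 sets shown.

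Promoters under HEB-free regions that met a HEB region of SB-treated cells held CANNTG and CAGAC about as often as the rest. CANNTG stood in 56.5% (51.9 to 61.1) of 474 promoters on such a region and in 56.2% (51.7 to 60.7) of 489 without one, and CAGAC in 50.0% and 50.7%. GGCGCC stood in 28.7% (24.7 to 33.0) and 34.8% (30.5 to 39.2). The median CG count was 26 in both sets.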

How the data were processed

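ChIP-seq was deposited for 6 ChIP libraries with 4 inputs of the CGR8 line, and this account uses the authors' list of enriched regions per ChIP library. Genome build mm9 and CASAVA 1.8.2 are named in the submitters' processing notes; the tools for alignment and region calling, and the gene annotation, do not appear in the labels or headers. The deposited tables give, per the file headers, for each region whole-number counts of ChIP and background tags, the signal height of the ChIP and background peak, and a tag enrichment. This enrichment is used as deposited, and at some regions it lies below the ratio of the 2 counts. Gene names and distances are the authors', and coordinates are printed as deposited, without a stated base.

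Repeated entries of a region were counted once. A shared base (1 bp) made an overlap. Intervals are 95%, exact (Clopper-Pearson) for shares and Newcombe's for differences. Listed regions held 933126 to 5051930 ChIP tags per library; library totals were not used here, so heights are not compared across libraries beyond the printed values. Alternatives were another overlap rule, shortened lists, fewer regions, 500 bp promoters and standardization over quintiles of height, enrichment or width, the last added after seeing the data. Overlap code was tested on simulated lists. Genes were matched to RefSeq names (5209 of 5246 listed symbols), and promoters and microRNAs are from RefSeq on GRCm38.p6. The DNA of the regions themselves was not used here.

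Members, gene lists and comparisons were chosen with earlier results of these data known. Named were the highest regions by height or tag enrichment with and without a gene, up to 4 genes per list, the highest on and off each SB list, those at the edge of the rule and genes with most members; others named (the highest promoter-proximal regions and further list members) were chosen after their values were seen. Some results that the naming rule covers are not reported here. Analyses used Python 3.11.15, pandas 2.3.3 and scipy 1.17.1.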

Additional observations from a re-analysis of the deposited data

How the results depend on the processing

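Each group had 1 library and no shared replicates, so no replicate could be left out. No paired analysis was possible because each group had 1 sample. Only listed regions were available, so binding under the smallest listed height was not seen. With a gap of up to 1000 bp counted as overlap, the HEB-free share was 27.9% and 19.5% of those regions overlapped Endoderm+SB HEB. With the upper 50% of each list, the HEB-free share was 40.2%, overlap with Endoderm+SB HEB 11.3% and with ESC+SB HEB 8.62%, promoter-proximal share 35.5%, median height 42.5, enrichment 11.3 and width 539 bp. With lists of equal length these were 46.0%, 11.95%, 1.797%, 24.8%, 49.8, 13.5 and 555 bp. Both settings also shorten the HEB lists and remove the lowest regions. Without the 5% of regions with the highest background the median enrichment was 9.05. Promoter-proximal regions alone gave 30.6% and 27.4% on the SB lists, others 8.07% and 5.65%. With 500 bp promoters the promoter-proximal share was 39.8%.

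Of 81 alternative values for differences between classes, 8 reversed. The ESC+SB HEB difference from regions on Endoderm HEB alone became -0.96 points with lists of equal length and -1.77 standardized over enrichment. The promoter-proximal difference from regions on ESC HEB became 8.16 (upper 50%), 3.25 (equal length), 0.19 (without high background), 3.14 (standardized over enrichment) and 2.96 (over width). That from regions shared with ESC SMAD2/3 became -0.54 with lists of equal length. The cause was not tested. The Endoderm+SB HEB differences were negative under every alternative run, from -41.5 to -12.4 points.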
